A study of Schizosaccharomyces pombe with 12 samples.

Results

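The genes followed here are the 7 fission yeast (Schizosaccharomyces pombe) genes that encode the glyoxalases and the DJ-1 family Hsp31 proteins. They were chosen by name from the fission yeast gene catalogue as hsp3101 (SPCC757.03c), hsp3102 (SPAC5H10.02c), hsp3103 (SPBC947.09), hsp3104 (SPAC11D3.13), hsp3105 (SPAC1F7.06), glo1 (SPBC12C2.12c) and glo2 (SPAC824.07). All 7 were found among the 12683 genes of the count table, and all 7 passed the filter on low counts. PolyA RNA was sequenced from 3 strains, wild type (WT) and strains described as deleted for ubp8 or ubp16. Ubp8 is the ubiquitin protease of the SAGA coactivator complex, and Ubp16 is another ubiquitin hydrolase. Each strain was grown in rich YE5S medium, and cells were taken either without treatment or 30 min after 1 mM peroxide (H2O2) was added, which gives 6 groups of 2 libraries. No untreated group is listed at 30 min, so peroxide cannot be told apart from time or handling. Nothing in the labels ties the paired libraries to separate cultures, and p-values therefore measure no more than the spread between these samples, which may be technical.

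Methylglyoxal is a reactive dicarbonyl that forms from triose phosphates during glycolysis and modifies proteins and DNA. In the glutathione-dependent route, glyoxalase I converts the adduct of methylglyoxal and glutathione to S-D-lactoylglutathione, and glyoxalase II hydrolyses this thioester to D-lactate and returns the glutathione. Proteins of the DJ-1/Hsp31 family, named after the human DJ-1 protein and the budding yeast Hsp31, can make D-lactate from methylglyoxal in a single step without glutathione, an activity called glyoxalase III. The reference annotation names glo1 as glyoxalase I, glo2 as hydroxyacylglutathione hydrolase (glyoxalase II) and each of the 5 hsp31 genes as a glyoxylase III.

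Total counts per library ran from 9904056 to 14054746, and within groups the log2 levels correlated at 0.9887 to 0.9918 (Pearson's r across genes, which are not independent replicates). Levels below are counts relative to the scaled library total (CPM). Neither deleted gene was at 0 in its own strain. Untreated WT had 33.89 and 34.08 CPM of ubp8 against 9.493 and 8.34 CPM in the ubp8 strain, and 46.68 and 54.3 CPM of ubp16 against 22.16 and 24.95 CPM in the ubp16 strain. Both transcripts were lower in the strain that bears the name. The ubp16 transcript was not low there alone, as it stood at 31.93 and 32.5 CPM in untreated ubp8. After peroxide it stood at 20.52 and 25.55 CPM in WT, 19.28 and 20.76 in ubp8 and 9.38 and 12.99 in ubp16. Treated WT thus overlapped untreated ubp16, and a low level by itself does not single out the ubp16 strain. The position of the remaining reads within each gene was not analysed here. Genes that mark M cells and P cells, the fission yeast mating types, were measured as well. The summed level of 4 M-cell genes ran from 14.48 to 15.43 CPM in untreated WT, from 22.5 to 47.88 in untreated ubp8 and from 80.79 to 110.2 in untreated ubp16. After peroxide it ran from 3.848 to 4.63 CPM in WT, from 5.206 to 6.31 in ubp8 and from 35.18 to 47.91 in ubp16. The summed level of 2 P-cell genes ran from 8.565 to 8.594 CPM in untreated WT, from 11.12 to 12.05 in untreated ubp8 and from 8.709 to 9.71 in untreated ubp16. After peroxide it ran from 3.059 to 3.578 CPM in WT, from 6.127 to 8.358 in ubp8 and from 7.495 to 9.104 in ubp16. Both summed levels thus lay above treated WT in the treated mutants, in ubp8 by a few CPM. By the test described below, 3 of the 4 M-cell genes and 0 of the 2 P-cell genes were called higher in untreated ubp8 than in WT. The same numbers were called in untreated ubp16. In treated ubp8, 0 of the 4 M-cell genes and 1 of the 2 P-cell genes were called higher than in WT. In treated ubp16 the calls were 3 of 4 and 1 of 2. Over all tested genes 15.1% were called higher in untreated ubp8 and 14.3% in untreated ubp16. After peroxide the shares were 16.6% in ubp8 and 28.7% in ubp16. The part of these markers in the strain differences below was not tested.

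Upstream sequences are shown for 3 genes whose responses took different forms, namely hsp3101, with the steepest rise in WT, hsp3104, which rose further in ubp16 than in WT, and glo1, which rose less in ubp16 than in WT. They are the 250 bases before the annotated start of the transcript in the RefSeq reference ASM294v3, read 5′ to 3′ on the strand of the gene, and capitals mark matches to the motifs named next. The positions are chrIII:48502-48751 on the minus strand for hsp3101, chrI:129920-130169 on the plus strand for hsp3104 and chrII:2446307-2446556 on the plus strand for glo1.
hsp3101: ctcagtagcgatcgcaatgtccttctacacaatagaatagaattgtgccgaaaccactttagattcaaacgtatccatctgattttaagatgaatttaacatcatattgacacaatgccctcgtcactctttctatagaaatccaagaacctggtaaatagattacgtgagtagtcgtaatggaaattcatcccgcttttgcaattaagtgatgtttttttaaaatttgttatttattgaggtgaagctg
hsp3104: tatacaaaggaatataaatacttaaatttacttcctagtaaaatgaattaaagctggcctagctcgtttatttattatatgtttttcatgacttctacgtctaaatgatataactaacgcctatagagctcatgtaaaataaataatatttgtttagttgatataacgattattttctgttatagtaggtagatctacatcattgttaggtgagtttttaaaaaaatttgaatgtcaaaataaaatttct
glo1: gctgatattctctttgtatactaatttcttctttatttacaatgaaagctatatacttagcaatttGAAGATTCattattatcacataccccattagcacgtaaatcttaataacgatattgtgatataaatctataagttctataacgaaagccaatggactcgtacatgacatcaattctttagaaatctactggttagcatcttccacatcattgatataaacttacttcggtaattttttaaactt
For glo2 the bases before the start lie inside the annotated transcript of tim14 on the same strand, so only the 30 bases around its TGACGT are shown, from chrI:1696418-1696447 on the plus strand.
glo2: tacatatcactcTGACGTtaccgtatataa

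Letters of 5 motifs were searched on both strands from 250 bases before to 50 after each start, with position 0 at the first transcribed base. TGACGT, the core of the Atf1 binding site, was found in glo2 at -46 and in 5.91% of 5112 promoters. GAANNTTC, the heat shock element core, was found in glo1 at -184 and 0 and in glo2 at -102, and in 11.1% of all promoters. TTAGTAA was found in hsp3104 at 11 and in 12% of promoters, while TTACGTAA (0.469%) and TTAGTCA (4.52%), which like TTAGTAA resemble sites of the AP-1-like factor Pap1, were found in none of the 7. The promoters of hsp3101, hsp3102, hsp3103 and hsp3105 held none of these letters. With only the 250 bases before the start, the glo1 match at 0 and the hsp3104 match drop out. The matches overlap each other nowhere, and a match is a description of the letters alone.

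Nearly the whole set rose with peroxide. In WT, 6 of the 7 genes rose and none fell, against 26.2% of 8166 tested genes called higher. All 7 rose in ubp8, where 28.0% of genes were called higher, and all 7 rose in ubp16, where 25.2% were. Genes were called at a Benjamini-Hochberg adjusted p under 0.05 in edgeR's quasi-likelihood test. The median log2 change of the 7 was 2.28 in WT, 2.58 in ubp8 and 2.46 in ubp16, beside medians over all tested genes of -0.038, -0.062 and -0.05. The rises ranged from 3.14-fold in glo2 to 59.3-fold in hsp3101 among the 6 WT calls, and hsp3103 was the gene that did not pass.

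The strains also differed before and after treatment, and every member called between strains was higher in the mutant. In untreated cells 3 of the 7 were higher in ubp8 than in WT (background 15.1% of genes) and 6 of the 7 were higher in ubp16 (background 14.3%). After peroxide 5 of the 7 were higher in ubp8 (background 16.6%) and 6 of the 7 in ubp16 (background 28.7%). The median log2 differences of the 7 were 0.59 and 1.03 in untreated cells and 0.64 and 1.81 in treated cells, for ubp8 and ubp16 in turn. The medians of all tested genes lay between -0.019 and 0.036. The comparisons share their WT libraries. In untreated ubp16, replicate 2 lay above replicate 1 for hsp3101 (1.96-fold), hsp3102 (1.83-fold), glo2 (1.31-fold), glo1 (1.26-fold) and hsp3104 (1.08-fold). It lay below replicate 1 for hsp3103 (1.08-fold). The calls of the members are therefore not independent of each other. With library totals in place of scaling factors, the untreated ubp8 count was 5 of 7. The median of all tested genes in that comparison then moved from -0.011 to 0.279.

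**Figure D1:**
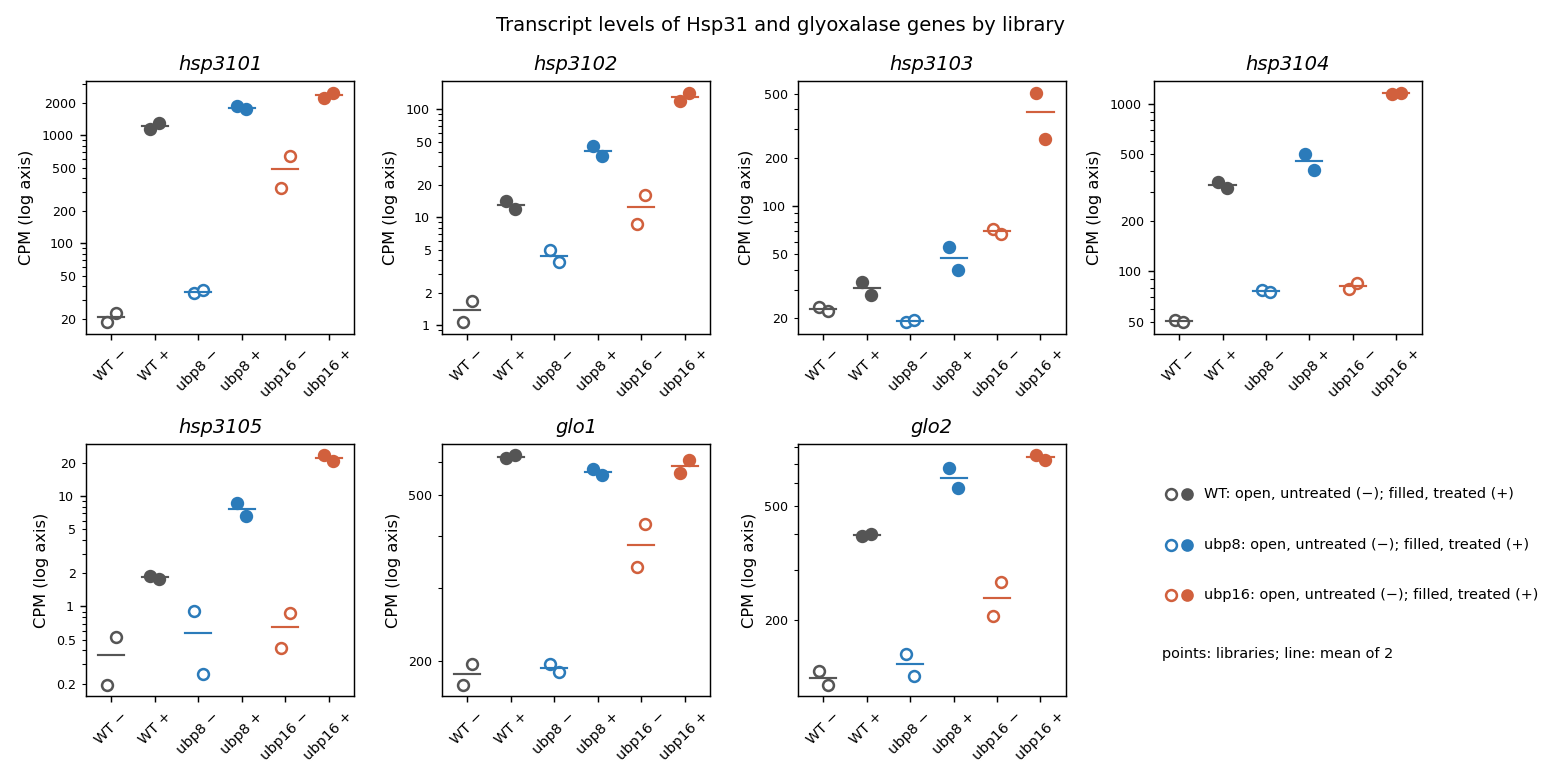
Levels of the 7 genes in CPM (log axes) in each of the 12 libraries. Open points are untreated and filled points treated libraries, colours are strains and each line is the mean of 2 libraries. In hsp3101 the untreated ubp16 libraries (327 and 642.2 CPM) lie far above untreated WT (18.65 and 22.87 CPM), while in glo1 the treated libraries of all strains lie between 557.5 and 623 CPM.

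Glyoxalase I had the highest level per kb of the 7 in untreated WT and was not called different from WT in either mutant after treatment. The glo1 transcript stood at 175.9 and 197.7 CPM in untreated WT, 197.1 and 188.7 in untreated ubp8, and 336.5 and 425.4 in untreated ubp16. After peroxide it stood at 612 and 623 CPM in WT, 576.7 and 557.5 in ubp8, and 565.4 and 606.4 in ubp16. Untreated ubp16 lay above both other untreated groups, which overlapped, and the treated ubp8 and ubp16 libraries overlapped each other just below WT. With peroxide glo1 rose 3.31-fold in WT (log2 change 1.72 ± 0.11, SE), 2.94-fold in ubp8 (1.56 ± 0.11) and 1.54-fold in ubp16 (0.62 ± 0.11). Before treatment ubp16 held 2.04-fold more than WT (1.03 ± 0.11, adjusted p = 4.49e-06). After treatment the difference from WT was -0.08 for ubp16, with a 95% interval of -0.31 to 0.16 and an adjusted p of 0.581, and -0.12 for ubp8, with an interval of -0.35 to 0.11 and an adjusted p of 0.419. The log2 rise in ubp16 differed from that in WT by -1.10 ± 0.16 (adjusted p = 7.18e-05). No difference between untreated ubp8 and WT was called (0.05 ± 0.11), but with library totals as scaling it was 0.34 with an adjusted p of 0.00611. That scaling also moved the median of all tested genes in this comparison from -0.011 to 0.279.

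Glyoxalase II rose in all 3 strains and was higher in ubp16 than in WT in both conditions. The glo2 transcript stood at 133 and 119.2 CPM in untreated WT, 152.7 and 128 in untreated ubp8, and 207.5 and 271 in untreated ubp16. After peroxide it reached 391.6 and 399.5 CPM in WT, 675.8 and 576.5 in ubp8, and 749.4 and 723.3 in ubp16. The treated groups were ordered WT, ubp8, ubp16 with no overlap, and of the untreated groups only WT and ubp8 overlapped. The rise was 3.14-fold in WT (1.65 ± 0.13), 4.46-fold in ubp8 (2.16 ± 0.13) and 3.08-fold in ubp16 (1.62 ± 0.13). In ubp16 glo2 exceeded WT by 0.92 ± 0.13 untreated (adjusted p = 6.7e-05) and by 0.90 ± 0.13 treated (adjusted p = 1.83e-05), and the difference between its responses was not called (-0.03, interval -0.41 to 0.36). In treated ubp8 it was 1.58-fold above WT (0.66 ± 0.13, adjusted p = 0.000992). The larger rise in ubp8 than in WT, 0.51 ± 0.18, did not pass (adjusted p = 0.065). It passed in DESeq2 (0.49, adjusted p = 0.0495), in the fit with replicate numbers as a block (0.51, adjusted p = 0.0492) and in 3 of the 12 fits that left out a library.

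Of the Hsp31 genes, hsp3101 had the steepest rise in WT and the highest level per kb of the 7 after peroxide. It stood at 18.65 and 22.87 CPM in untreated WT, 34.53 and 37.01 in untreated ubp8, and 327 and 642.2 in untreated ubp16. After peroxide it stood at 1153 and 1315 CPM in WT, 1865 and 1758 in ubp8, and 2224 and 2498 in ubp16. No neighbouring groups overlapped, although the untreated ubp16 libraries differed from each other 1.96-fold. The rise was 59.3-fold in WT (5.89 ± 0.26, adjusted p = 4.09e-11), 50.6-fold in ubp8 (5.66 ± 0.25) and 4.88-fold in ubp16 (2.29 ± 0.21). Before any peroxide ubp16 already held 23.3-fold more hsp3101 transcript than WT (4.54 ± 0.25, adjusted p = 1.71e-09), and after it 1.91-fold more (0.94 ± 0.21, adjusted p = 0.00108). The log2 rise in ubp16 differed from that in WT by -3.60 ± 0.31 (interval -4.27 to -2.94, adjusted p = 4.6e-07), and it stayed between -4.01 and -3.02 when any library was left out. The ubp8 strain exceeded WT by 0.78 ± 0.24 untreated (adjusted p = 0.018) and 0.55 ± 0.20 treated (adjusted p = 0.0487). The treated ubp8 call held in only 4 of 12 fits that left out a library, and failed with median-of-ratios factors (0.52), DESeq2 (0.52) and limma-voom (0.56). The untreated call was lost when replicate 1 of untreated WT (0.63) or ubp8 replicate 2 (0.72) was left out.

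The closest relative, hsp3102, was a gene of low level which was higher in both mutants than in WT, before peroxide and after it. It stood at 1.074 and 1.678 CPM in untreated WT (11 and 19 counts), 5.007 and 3.83 in untreated ubp8, and 8.709 and 15.92 in untreated ubp16. After peroxide it stood at 14.21 and 11.94 CPM in WT, 45.9 and 36.49 in ubp8, and 118.9 and 142.1 in ubp16. Untreated ubp16 overlapped treated WT, and all other groups were apart. The rise was 9.33-fold in WT (3.22 ± 0.35), 9.35-fold in ubp8 (3.22 ± 0.24) and 10.8-fold in ubp16 (3.44 ± 0.21). Against WT, ubp8 was higher by 1.66 ± 0.39 untreated (adjusted p = 0.00472) and 1.66 ± 0.22 treated (adjusted p = 4.06e-05), and ubp16 by 3.11 ± 0.35 (adjusted p = 5.75e-06) and 3.32 ± 0.21 (adjusted p = 3.04e-09). Neither mutant's response was called different from that of WT. The difference was 0.21 for ubp16 with an interval of -0.81 to 1.24.

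The gene that did not pass in WT, hsp3103, had the widest gap between ubp16 and WT after treatment, next to hsp3105. It stood at 23.54 and 22.25 CPM in untreated WT, 18.99 and 19.65 in untreated ubp8, and 72.3 and 67.09 in untreated ubp16. After peroxide it stood at 33.57 and 28.12 CPM in WT, 55.72 and 39.78 in ubp8, and 507.4 and 261.2 in ubp16. Untreated ubp16 lay above every treated library of WT and ubp8, and the treated ubp16 libraries differed from each other 1.94-fold. The log2 difference with peroxide was 0.43 ± 0.26 in WT (adjusted p = 0.178). The gene rose 2.48-fold in ubp8 (1.31 ± 0.24, adjusted p = 0.000236) and 5.51-fold in ubp16 (2.46 ± 0.22, adjusted p = 9.76e-08). The WT change passed with no count filter (0.43, adjusted p = 0.00261), with only the libraries of the comparison (0.42, adjusted p = 0.0283) and without either treated ubp16 library. In ubp16 the gene exceeded WT 3.05-fold untreated (1.61 ± 0.24, adjusted p = 0.000128) and 12.5-fold treated (3.64 ± 0.24, adjusted p = 3.92e-09), and its response was larger by 2.03 ± 0.34 (interval 1.32 to 2.75, adjusted p = 0.000304). The treated difference between ubp8 and WT was 0.64 ± 0.24 (adjusted p = 0.0536) and was not called. It passed with library totals (0.79, adjusted p = 0.0324), with no count filter (0.62, adjusted p = 3.92e-06), with only the libraries of the comparison (0.65, adjusted p = 0.00208), in the replicate block (0.62, adjusted p = 0.013) and in 5 of the 12 fits that left out a library.

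The transcript of hsp3104 rose in every strain and most in ubp16. It stood at 51.27 and 49.8 CPM in untreated WT, 76.92 and 75.12 in untreated ubp8, and 78.95 and 85.45 in untreated ubp16. After peroxide it stood at 343.1 and 315.6 CPM in WT, 504.2 and 404.8 in ubp8, and 1144 and 1171 in ubp16. All 6 groups were apart, and treated ubp16 stood well above the others. The rise was 6.52-fold in WT (2.70 ± 0.12), 5.98-fold in ubp8 (2.58 ± 0.11) and 14.1-fold in ubp16 (3.82 ± 0.12). The response in ubp16 was larger than in WT by 1.11 ± 0.15 (interval 0.79 to 1.44, adjusted p = 5.77e-05). Against WT, ubp16 was higher by 0.70 ± 0.11 untreated (adjusted p = 0.000237) and 1.81 ± 0.11 treated (adjusted p = 1.18e-09). The ubp8 strain was higher by 0.59 ± 0.11 untreated (adjusted p = 0.00148) and 0.47 ± 0.10 treated (adjusted p = 0.00317). The treated ubp8 call was lost without replicate 2 of treated WT (0.39) or replicate 1 of treated ubp8 (0.27).

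The least abundant member was hsp3105, which was close to the detection floor in untreated cells. It had 2 and 6 counts in untreated WT, 14 and 4 in untreated ubp8, and 6 and 9 in untreated ubp16, where 3 counts came to 0.185 to 0.316 CPM depending on the library. After peroxide it had 18 and 18 counts in WT, 117 and 72 in ubp8, and 255 and 208 in ubp16, or 1.894 and 1.776, 8.578 and 6.585, and 23.45 and 20.79 CPM. The untreated groups overlapped, and the treated groups were ordered WT, ubp8, ubp16 with no overlap. From the summed counts the rise was 4.94-fold in WT (exact interval 2.26 to 12.3), 13.5-fold in ubp8 (8.31 to 23.3) and 36.1-fold in ubp16 (21.7 to 65), where the intervals cover counting error only. The fitted log2 rises were 2.28 ± 0.60 in WT (adjusted p = 0.00407), 3.71 ± 0.41 in ubp8 and 5.13 ± 0.40 in ubp16. After treatment ubp8 held 4.13-fold more hsp3105 than WT did (2.05 ± 0.37, adjusted p = 0.000625) and ubp16 held 12-fold more (3.59 ± 0.35, adjusted p = 3.38e-07), while no untreated difference was called. The response in ubp16 was larger than in WT by 2.86 ± 0.89 (adjusted p = 0.0252). That call was lost without replicate 2 of untreated WT (1.99, adjusted p = 0.367) or replicate 1 of untreated ubp16 (2.37, adjusted p = 0.0653). Without replicate 2 of untreated WT the WT rise was 3.16, and the ubp8 rise was 4.90 without replicate 1 and 3.06 without replicate 2 of untreated ubp8.

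**Figure D2:**
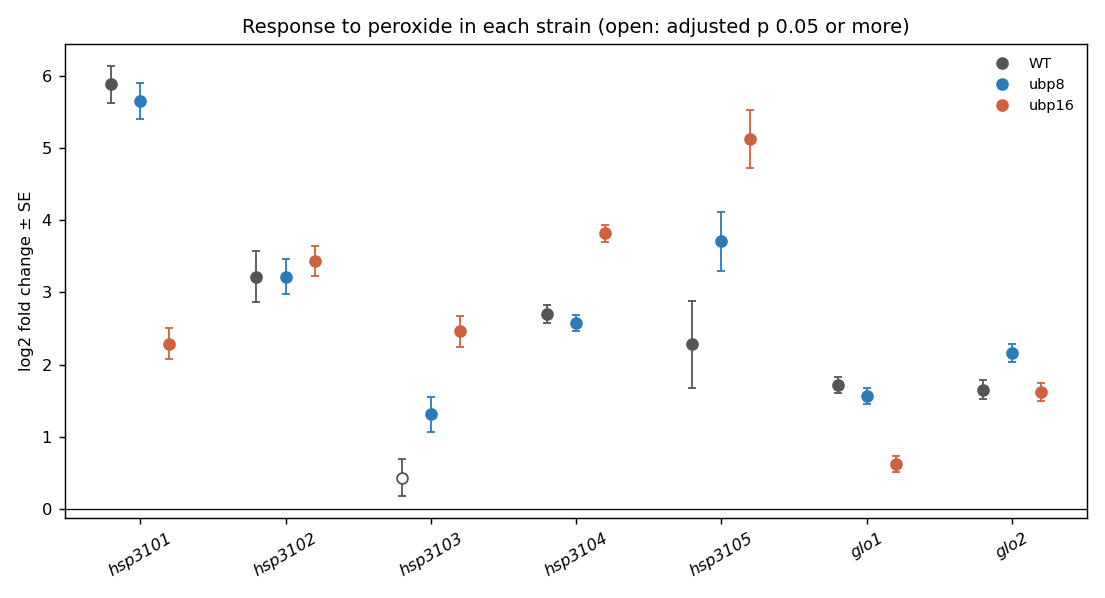
Log2 fold change with peroxide in each strain for the 7 genes. Points are estimates from 2 libraries per group, bars are SE and open points are not called. The ubp16 point lies below WT for hsp3101 (2.29 against 5.89) and glo1 (0.62 against 1.72) and above it for hsp3103, hsp3104 and hsp3105.

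Set against WT, the ubp16 response differed in 5 of the 7 genes, 3 larger and 2 smaller. Over all tested genes 27.4% differed, 13.0% larger and 14.4% smaller. The larger rises were those of hsp3103, hsp3104 and hsp3105, and the smaller ones those of hsp3101 and glo1. Both genes with a smaller rise started higher in untreated ubp16 than in untreated WT, and hsp3101 also ended higher. A higher start was not particular to them, as 6 of the 7 members were higher in untreated ubp16. Among the 6 were hsp3103 (1.61) and hsp3104 (0.7), whose rises were larger. The others were hsp3102 and glo2, whose responses were not called different. No member was called for a different response in ubp8, against 16.8% of all tested genes. At an unadjusted p under 0.05 there were 2, hsp3103 (0.88 ± 0.35) and glo2, and DESeq2 called 1 (glo2). The replicate block called both (hsp3103 0.86, adjusted p = 0.0309, and glo2 0.51, adjusted p = 0.0492). The hsp3103 difference also passed with no count filter (0.79, adjusted p = 0.000234), with only the libraries of the comparison (0.77, adjusted p = 0.0236) and in 2 of the 12 fits that left out a library. The ubp8 response of hsp3101 was -0.23 from WT with an interval of -0.89 to 0.44, and that of hsp3104 was -0.12 with an interval of -0.45 to 0.20.

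**Figure D3:**
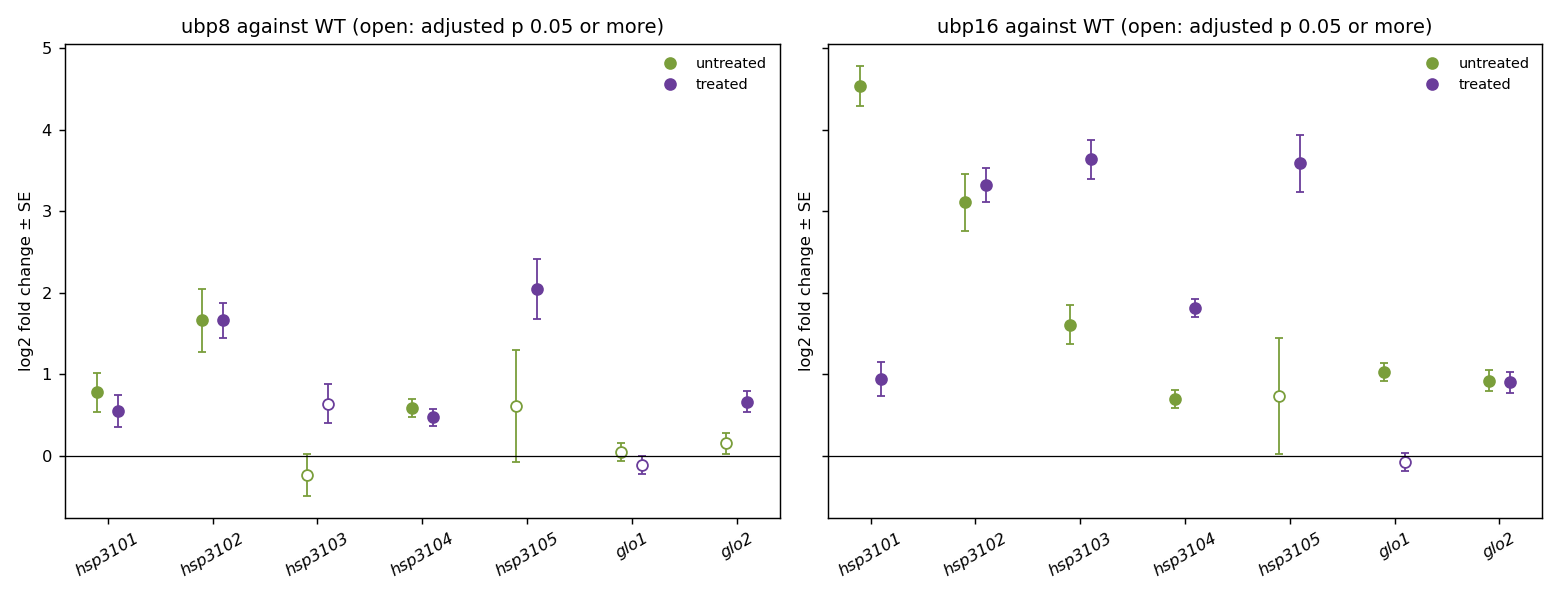
Log2 difference of ubp8 (left) and ubp16 (right) from WT for the 7 genes, untreated and treated, with SE bars and open points where not called. In ubp16 the untreated value exceeds the treated one for hsp3101 (4.54 against 0.94) and glo1 (1.03 against -0.08), and the reverse holds for hsp3103, hsp3104 and hsp3105.

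The order of the group means was shared by most members. In hsp3101, hsp3102, hsp3104, hsp3105 and glo2 the mean level climbed from untreated WT through untreated ubp8 and untreated ubp16 to treated WT, treated ubp8 and treated ubp16. Not every step was clear of overlap between libraries. The untreated groups of hsp3105 overlapped, as did untreated WT and ubp8 in glo2, and untreated ubp16 and treated WT in hsp3102. How common this order was over all genes was not examined. In hsp3103 untreated ubp16 (mean 69.7 CPM) stood above treated WT (30.84) and treated ubp8 (47.75). In glo1 treated WT had the highest mean (617.5 CPM), followed by treated ubp16 (585.9) and treated ubp8 (567.1). Among members, Pearson's r of log2 levels over the 12 libraries ran from 0.583 between hsp3103 and glo1 to 0.986 between hsp3101 and glo1. These values describe libraries that fall into treated and untreated groups and were not tested.

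Per length of transcript, the glyoxalase genes led in untreated WT and hsp3101 led after peroxide. Divided by transcript length in kb, untreated WT held 143.6 ± 11.9 CPM per kb of glo1 and 113.7 ± 8.81 of glo2 (SD, n = 2), ahead of hsp3104 (45.98 ± 0.947), hsp3101 (17.64 ± 2.53), hsp3103 (13.7 ± 0.544), hsp3102 (1.532 ± 0.475) and hsp3105 (0.2123 ± 0.139). The glyoxalase pair made up 42.7% and 33.8% of a summed level of 336.4 CPM per kb. In treated WT the sum was 2214 and hsp3101 alone made up 47.4%, with glo1 at 21.4% and glo2 at 16.1%. In ubp8 the hsp3101 share went from 7.77% to 50.8%. In ubp16 it was 39.2% of 1051 CPM per kb before peroxide and 44% of 4562 after it. In treated ubp16 hsp3104 had 23.1% and glo1 9.87%. These shares are of transcript and say nothing of protein or activity.

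**Figure D4:**
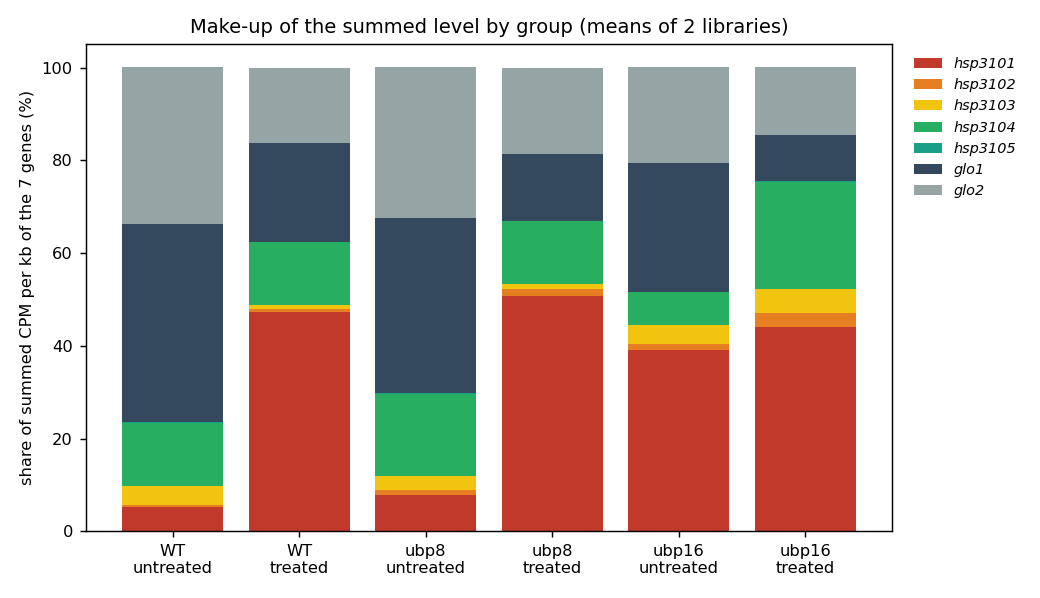
Share (%) of each gene in the summed CPM per kb of the 7 genes, as stacked bars from 0, from group means of 2 libraries. The hsp3101 segment is 5.24% in untreated WT, 39.2% in untreated ubp16 and between 44% and 50.8% in the treated groups.

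Other genes of the same chemistry were described from lists. The gene sdj1, which encodes another DJ-1 family protein annotated as a glyoxylase III, rose in WT (2.01 ± 0.13), in ubp8 (2.37 ± 0.12) and in ubp16 (1.98 ± 0.12), and was higher than WT in ubp16 by 0.59 ± 0.13 untreated and 0.57 ± 0.12 treated. Glutathione, the cofactor of glyoxalase I, is made by the products of gcs1, gcs2 and gsa1 and kept reduced by that of pgr1. All 4 genes rose in each strain, beside 26.2% of all tested genes in WT, 28.0% in ubp8 and 25.2% in ubp16. Their median log2 rise was 0.51 in WT, 0.62 in ubp8 and 1.15 in ubp16. The medians over all tested genes were -0.038, -0.062 and -0.05. In all 4 the ubp16 response was larger than in WT, by 0.46 ± 0.13 in gcs1, 0.47 ± 0.15 in gcs2, 0.44 ± 0.11 in gsa1 and 0.81 ± 0.15 in pgr1. A larger response in ubp16 than in WT was called in 13.0% of all tested genes. Only gsa1 was higher than in WT in untreated ubp16 (0.30 ± 0.08), where 14.3% of all tested genes were higher.

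Aldo-keto reductases reduce reactive aldehydes, methylglyoxal among them in some family members. Of 11 tested, 9 rose and 1 fell in WT, 9 rose in ubp8 and 10 rose in ubp16. Over all tested genes 26.2%, 28.0% and 25.2% rose in these strains. The median log2 changes of the 11 were 1.59, 2.22 and 2.69, beside -0.038, -0.062 and -0.05 over all tested genes. The WT rises reached 4.66 ± 0.21 in SPAC2F3.05c, annotated as a xylose and arabinose reductase, and 3.79 ± 0.16 in SPAC19G12.09. In untreated ubp16, 8 of the 11 were higher than in WT, beside 14.3% of all tested genes. Among the 8 were akr7, a pyridoxal reductase (2.87 ± 0.25), and SPAC19G12.09 (2.49 ± 0.15). The ubp16 response was larger than in WT in 6 and smaller in 3, beside 13.0% and 14.4% of all tested genes. The larger ones included yak3 (1.85 ± 0.24) and plr1 (1.84 ± 0.18), and the smaller ones SPAC19G12.09 (-1.51 ± 0.20) and SPAC2F3.05c (-1.04 ± 0.26).

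Triose phosphates are the source of methylglyoxal, and 7 genes around them were tested. In untreated ubp16, 5 were lower and 2 higher than in WT, where 11.3% of all tested genes were called lower and 14.3% higher. The lower ones included the aldolase gene fba1 (-1.63 ± 0.13), the dehydrogenase gene tdh1 (-1.51 ± 0.12) and the kinase gene pgk1 (-1.03 ± 0.13), and the higher ones were gpd1 (0.89 ± 0.20) and gpd3 (0.55 ± 0.17). The genes tdh1 and gpd3 encode related dehydrogenases, and reads they may share were not examined. With peroxide 3 of the 7 rose in WT, beside 26.2% of all tested genes. The rises were led by the glycerol-3-phosphate dehydrogenase genes gpd1 (2.31 ± 0.21) and gpd2 (1.10 ± 0.10). The median of the list was -0.87 in untreated ubp16 against WT, beside 0.011 over all tested genes.

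The coding genes whose log2 levels were most like each member over the 12 libraries were sought among 4947 coding genes by Pearson's r, as a description. For hsp3101 they were SPBC24C6.09c, a phosphoketolase family gene (0.9995), ddr48 (0.9975) and pgc1 (0.9974). Like hsp3101, SPBC24C6.09c and ddr48 were far higher in untreated ubp16 than in WT (6.08 ± 0.33 and 6.03 ± 0.35) and had smaller rises there (-4.97 ± 0.40 and -5.43 ± 0.43). Both were picked for likeness to hsp3101 over these same libraries, so the shared pattern follows from the choice and is no separate result. For hsp3104 the list held SPBC2A9.02 (0.9911), srx1, which encodes sulfiredoxin (0.9908), and twf1 (0.9878). The glutathione S-transferase gene gst2 (0.9814) stood beside hsp3105 after eaf1 (0.9865). The catalase gene ctt1 (0.9894) stood beside glo2 after nas6 (0.9923) and SPAC25B8.18 (0.9895). The likest genes were mag2 for hsp3102 (0.9931), miy1 for hsp3103 (0.974) and SPBC11C11.06c for glo1 (0.9948).

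The members differ in sequence. The longest run of bases shared exactly between any of their transcripts was 17, between hsp3101 and hsp3102, whose proteins are 59.2% identical over 238 aligned residues. With hsp3103 these proteins shared 47.5% and 48.1%, and hsp3104 shared 43.6% to 44.6% with the 3 others. Hsp3105 was the most distant, at 27% to 32.2%. Aligned with Glo1 and Glo2, Hsp3105 itself gave 29.2% and 24.5%. The other Hsp31 proteins gave 19.6% to 25.3% with Glo1 or Glo2. The proteins have 244, 240, 261, 222 and 251 residues in order of their numbers. Glo1 has 302 residues, and its first and last 151 are 51.4% identical over 144 aligned residues. Glo2 has 256.

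Other annotated genes, most of them non-coding, overlap the members, and how strand was used in counting is not stated for these data. On the opposite strand annotated genes cover 100% of hsp3101, 99% of glo2, 72.9% of glo1, 65.9% of hsp3102, 57.2% of hsp3105, 28.3% of hsp3104 and 26.6% of hsp3103. Those opposite hsp3102 include the coding gene dgc1, and those opposite hsp3104 the coding gene SPAC11D3.14c. Opposite hsp3101, SPNCRNA.1099 had a log2 difference of -0.41 ± 0.36 with peroxide in WT and SPNCRNA.1100 of 0.05 ± 0.25, neither of them called, while hsp3101 rose 59.3-fold. Opposite hsp3102, SPNCRNA.613 fell in WT (-2.38 ± 0.36), in ubp8 (-1.93 ± 0.33) and in ubp16 (-1.85 ± 0.46). On the same strand SPNCRNA.243 covers 43.7% of hsp3105, and reads there cannot be assigned to either gene with certainty. The gene fnx1, next to glo1, was called in none of the 9 comparisons, and nic1, next to hsp3101, fell with peroxide in WT (-0.44 ± 0.13) and ubp8 (-0.37 ± 0.12) but rose in ubp16 (1.10 ± 0.12).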

How the data were processed

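PolyA RNA was sequenced in 12 libraries, grouped by their titles. The table deposited by the authors holds unscaled whole-number counts per gene for each library. FastQC, Trimmomatic, STAR, HTSeq and DESeq2 were used by the authors, per the submitters' processing notes, without versions. Their genome build is not stated in the sources used here. The RefSeq reference ASM294v3 gave names, lengths, neighbours, upstream bases and coding sequences. Of 12683 genes listed, 12602 matched it, and the 81 others held 0.0642% of counts. The reference was matched by gene identifier, so no coordinate of the authors' alignment was needed.

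The test was edgeR 4.0.16 in R 4.3.3. Its filterByExpr kept 8166 genes, of which 4954 are coding, TMM factors scaled the libraries, and glmQLFit and glmQLFTest used all 12 libraries with a mean for each of the 6 groups. Adjusted p-values are Benjamini-Hochberg values over all tested genes of a comparison, the SE comes from the log2 fold change and its F value, and intervals are 95%. Exact permutation of 2 against 2 libraries cannot go below p = 0.333 and was not used. Depths of 9904056 to 14054746 counts put 3 counts at 0.185 to 0.316 CPM. The fit was tested on simulated data with changes set in the peroxide response of WT. It recovered 59.3% of 86 genes changed by a log2 of 1 and 86.9% of 107 changed by a log2 of 2. There were 10 false calls among 7697 genes. A true log2 difference of 1 or less may thus go uncalled, and at times one of 2. Recovery was measured for that response alone and does not cover the other comparisons. Alternatives used limma 3.58.1, DESeq2 1.42.0, other scalings and filters, a replicate block and fits that left out a library.

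The 7 genes, the lists and the rule for other named genes were chosen with earlier results of these data known. That rule took the neighbours and overlapping genes of each member, the 3 coding genes most like it, and up to 3 called genes of each list per comparison, or any gene of a list of 5 or fewer. Levels between genes were compared per kb of transcript. Proteins translated from the reference were aligned end to end with BLOSUM62 scores.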

Additional observations from a re-analysis of the deposited data

Results flagged for a closer look

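For 5 of the 7 genes the response to peroxide in ubp16 differed from that in WT by the test of the difference itself (edgeR quasi-likelihood, Benjamini-Hochberg). The log2 difference was -3.6 for hsp3101 and -1.1 for glo1, whose rises were smaller in ubp16. It was 2.03 for hsp3103, 1.11 for hsp3104 and 2.86 for hsp3105, whose rises were larger. The value for hsp3105 rests on 2 to 9 counts in the untreated libraries of WT and ubp16, and its call is lost when either of 2 untreated libraries is left out.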

How the results depend on the processing

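The rises in WT, ubp8 and ubp16 and the ubp16 differences from WT in either condition kept their direction and their call for every member that passed, under each scaling, filter and tool and in all 12 fits without a library. The calls that moved concern ubp8 and the responses of hsp3103 and hsp3105. With library totals 5 members were called in untreated ubp8 (3 otherwise), as glo1 (0.34) and glo2 (0.44, adjusted p = 0.0107) passed, and hsp3103 passed in treated ubp8 (0.79, adjusted p = 0.0324). That scaling moves the median of all genes in untreated ubp8 against WT from -0.011 to 0.279 and in treated ubp8 from 0.036 to 0.193. In the peroxide response of ubp8 the median moves from -0.062 to -0.384. The scaling also turns the uncalled hsp3103 in untreated ubp8 to 0.05 and glo1 in treated ubp8 to 0.04.

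For the difference in response between ubp8 and WT, 1 member was called with DESeq2, with no count filter and with only the libraries of the comparison, and 2 in the replicate block (0 otherwise). The replicate block also called hsp3103 in treated ubp8 (0.62, adjusted p = 0.013) and its response (0.86, adjusted p = 0.0309), and changed no other member's call except glo2 (0.51). Replicate differences correlated over genes at 0.112, 0.18 and 0.144 between untreated and treated libraries of WT, ubp8 and ubp16, and at -0.089 to 0.191 over all 15 pairs of groups. With 2 numbers per group and no label on what they mark, whether they pair the samples within a strain is not settled. The uncalled hsp3102 difference for ubp8, about 0, took values of -0.02 with median-of-ratios factors, -0.14 with library totals, -0.03 with DESeq2, -0.09 with no count filter, -0.13 with a mean of at least 50 counts, -0.14 with coding genes only and -0.11 with only the libraries of the comparison. The cause was not tested.

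Without a library each in turn, members called ran from 2 to 3 for untreated ubp8, 3 to 6 for treated ubp8 and 0 to 1 for the difference in response between ubp8 and WT. The uncalled values that changed sign ranged from -0.05 to 0.19 (glo1, untreated ubp8), -0.57 to 1.56 (hsp3105, untreated ubp8), -0.44 to 0.3 (hsp3102, response in ubp8 minus WT), -0.18 to 0.69 (hsp3102, response in ubp16 minus WT) and -0.2 to 0.19 (glo2, response in ubp16 minus WT). Genes called in all ran from 1183 to 3427 for untreated ubp8, 1359 to 2060 for untreated ubp16, 1632 to 2843 for treated ubp8 and 421 to 1691 for the response difference of ubp8, beside 3180, 2088, 2637 and 1374 with all libraries. The lowest counts came without replicate 2 of untreated WT (untreated ubp8 and ubp16), replicate 1 of treated ubp8 (treated ubp8) and replicate 1 of treated WT (response difference of ubp8). Untreated ubp8 had 1849 genes called with a mean of at least 50 counts and 1318 with coding genes only, where fewer genes were tested, and the response difference of ubp8 had 721 with coding genes only. Low counts limit hsp3105 and untreated hsp3102.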
